A study of Homo sapiens with 2 samples.

Results

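The genes described here are the heat shock proteins and the DNAJ co-chaperones of HSC-3 cells, a human tongue squamous cell carcinoma line, cultured on Myogel or on plastic. Members were chosen by name. A gene was a member if its symbol began with HSPA, HSPB, HSPD, HSPE, HSPH, DNAJA, DNAJB or DNAJC and a digit, or with HSP90A or HSP90B, and if at least 1 probe set carried that symbol alone. By this rule there were 72 members among 19775 genes measured, of which 67 were protein coding and 5 were non-coding genes named after a neighbour. Where a gene had several probe sets, that of the highest mean log2 value stood for it and the others were kept as a check. The members had 171 probe sets in all, with 18 members measured by 1 probe set and 54 by at least 2.

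The cells were grown on a coating of Myogel, a soluble extract of human uterine leiomyoma tissue, or, as the control, on uncoated plastic. Cells on both surfaces expressed RFP, a red fluorescent protein, from a stably integrated lentivirus with a control insert that codes for nothing, had been through puromycin selection, grew in DMEM/F-12 with hydrocortisone, ascorbic acid and 10% heat inactivated serum, and were harvested on the day after seeding. For each surface equal amounts of RNA from 3 wells went into a pool that was hybridised to 1 Affymetrix U133 Plus 2.0 array, so that each surface is 1 array, no replicate spread can be given and no test was made. The surfaces are taken from the sample titles and source names, since a protocol label describes uncoated plates for both.

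Heat shock proteins are chaperones, which bind other proteins while these are unfolded and keep them from aggregating. The Hsp70 proteins (HSPA) bind and release short stretches of a client in a cycle driven by ATP, the DNAJ proteins deliver clients and stimulate the ATP hydrolysis, and the Hsp110 proteins (HSPH and some HSPA) exchange the nucleotide. Hsp90 receives partly folded clients such as kinases and steroid receptors, the chaperonin of HSPD1 and HSPE1 encloses clients in mitochondria, and the small heat shock proteins (HSPB) hold unfolded clients without ATP. Many, but not all, of these genes are induced by heat shock factor 1, which binds heat shock elements, inverted repeats of GAA. In squamous carcinomas the cytosolic chaperones are abundantly expressed also without heat.

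The 2 arrays held values for 54613 probe sets other than controls, in linear units with a floor of 1. The median value was 52.5 units on Myogel and 59.7 units on plastic, and 4.73% of the probe sets on Myogel and 4.42% of those on plastic lay at the floor. Over all genes the median log2 fold change (log2 FC, Myogel over plastic) was −0.07. The squamous markers were bright on both surfaces. All 5 measured of 8 had a signal above the gene median, and their summed values were 44229.8 units on Myogel and 47479 units on plastic, with KRT14 at 18224 units on Myogel and 18856 units on plastic. Of 8 smooth muscle markers, listed because Myogel is made from a smooth muscle tumour, the summed values were 1558 units on Myogel and 1555 units on plastic, in a range of 1.00 to 756 units on Myogel and 14.3 to 703 units on plastic. Of these 8, 4 had a signal above the gene median, namely ACTA2, ACTG2, MYH11 and SYNPO2, and 4 lay below it. ACTA2, the brightest, had 756 units on Myogel and 703 units on plastic. Among the dim ones, the defining marker DES had 63.5 units on Myogel and 43.0 units on plastic. CNN1 was at the floor on Myogel and had 17.6 units on plastic. The ratio of the 3′ to the 5′ control probe set was 6.10 on Myogel and 3.19 on plastic for ACTB, and 1.22 on Myogel and 1.10 on plastic for GAPDH. All 24 spike-in values added before labelling were lower on Myogel, with a median log2 FC of −1.73. Of 18 hybridisation spike-in values 17 were lower on Myogel, with a median log2 FC of −0.36. The part of these control values in the results below was not tested.

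The chaperones were expressed at nearly the same level on both surfaces, and bright members changed about as little as bright genes in general. Bright means a signal at or above the gene median. The median absolute log2 FC was 0.13 for bright members and 0.14 for all bright genes. Of the bright members only HSPB1, a small heat shock protein, was past a 1.5-fold change. A fold change of at least 1.5 (FC 1.5) in either direction was taken as a call. On this threshold 6 members were higher on Myogel (8.33%, against 9.71% of all genes) and 8 were lower (11.1%, against 17.5% of all genes), while 58 lay within it. The higher share was near that of all genes and the lower share was below it. Of the 72 members 50 had a signal at or above the gene median, where few genes were called (0.93% higher, 1.66% lower). Shares at like signal are therefore given below. With other scalings of the arrays the split was 7 higher and 5 lower after quantile normalization and 7 higher and 6 lower after loess centring, against 13.2% higher and 13% lower of all genes after quantile normalization and 13.3% higher and 12.9% lower after loess centring.

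Most of these calls were of dim genes. The 50 members with a signal, the geometric mean of the 2 arrays, at or above the gene median of 142 units included 0 that were higher by FC 1.5 (0.93% of such genes) and 1 that was lower (2%, against 1.66% of such genes), and this 1 was HSPB1. Of the 22 members below that signal, 6 were higher (27.3%, against 18.5%) and 7 were lower (31.8%, against 33.4%). DNAJB8 and HSPA12B, with 174 and 175.5 units on Myogel, reached 142 units on that array alone and count as dim by the mean. Where only the higher of the 2 values had to reach the gene median, 2 of 52 members were higher (1.35% of such genes). Under that filter 1 member was lower (2.4% of such genes). The bright members had a median log2 FC of −0.02, against −0.03 for all bright genes, with 23 above 0 and 27 below 0. Their median absolute log2 FC was 0.13, against 0.14 for all bright genes. As a scale for single genes, each log2 FC was set beside the range that holds 95% of the 1000 probe sets nearest in signal. This range describes the spread between these 2 arrays and is not a test. Outside it lay 4 of the 72 members (5.56%), HSPB1 below it and DNAJB8, DNAJC22 and HSP90B1 above it.

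**Figure D1:**
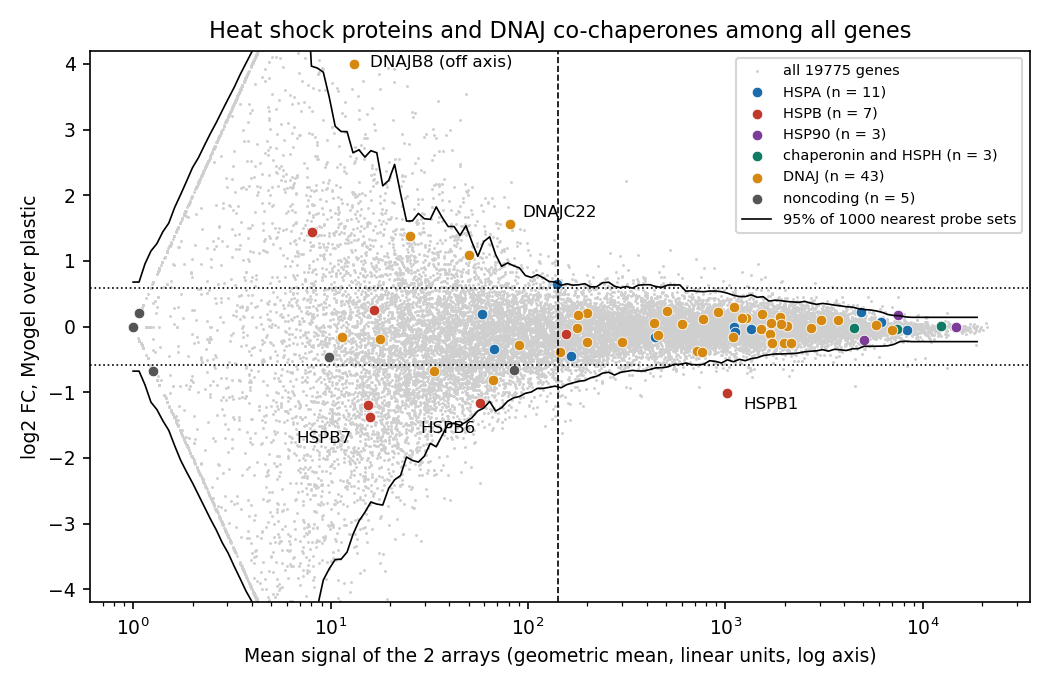
Log2 FC of Myogel over plastic (vertical axis, log2 scale) against the mean signal of the 2 arrays (horizontal axis, linear units on a log axis), with all 19775 genes in grey and the 72 members coloured by class. The black lines hold 95% of the 1000 probe sets nearest in signal, the dotted lines mark FC 1.5 and the dashed line the median signal of 142 units. DNAJB8, at the floor on plastic, is off the axis and drawn near the upper edge, and HSPB1, at −1.01, is the bright member below the lower black line.

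HSPB1 encodes Hsp27, a small heat shock protein that forms oligomers, holds unfolded clients and binds actin filaments. Its value was 722 units on Myogel and 1452 units on plastic, a log2 FC of −1.01 or 2.01-fold lower on Myogel, outside the range of −0.51 to 0.51 at its signal. Of 9888 bright genes, those whose signal reached the gene median, 13 had a lower log2 FC. HSPB1 was also the only member that was lower by FC 1.5 with a difference of at least 100 units, which was met by 0.627% of all genes. Its log2 FC was between −1.01 and −0.90 under the other scalings and offsets tried. The gene rests on 1 probe set, whose suffix (_s_at) marks probes shared between transcripts, so that no other probe set could be set beside it.

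The other small heat shock proteins were near or below the median signal. HSPB8, which works with BAG3 in the removal of misfolded proteins, had 149.6 units on Myogel and 161 units on plastic (log2 FC −0.11), and its second probe set had 121 units on Myogel and 99.9 units on plastic (0.28). The pair of probe sets thus differed in sign, both within the range at their signal. HSPB6, which encodes Hsp20, a partner of the actin cytoskeleton in muscle, had 38.0 units on Myogel and 85.3 units on plastic (log2 FC −1.17). Its second probe set had 30.8 units on Myogel and 37.0 units on plastic (−0.26). HSPB7 and HSPB3, known from heart and skeletal muscle, and HSPB9, known from testis, are named here after their values were seen. HSPB7 had 9.89 units on Myogel and 25.6 units on plastic (log2 FC −1.37), and HSPB3 had 10.2 units on Myogel and 23.5 units on plastic (−1.20). HSPB9 went the other way, with 13.3 units on Myogel and 4.92 units on plastic (log2 FC 1.44). All 4 of these dim values lay within the range at their signal, and the second probe set of HSPB7, at 1.22 units on Myogel and 1.00 on plastic, was at or next to the floor. The HSPB class thus had 4 of 7 members lower by FC 1.5, 1 higher and a median log2 FC of −1.01, but 5 of the 7 were below the median signal, where 33.4% of all genes were lower. CRYAB, the small heat shock protein next to HSPB2 on chromosome 11, had 40.6 units on Myogel and 39.6 units on plastic.

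The promoter of HSPB1, as the 250 bases before its start (RefSeq, GRCh38.p14, chr7:76302423-76302672, plus strand), is shown because HSPB1 is the bright member that differed, and the stretches of HSPB6, HSPB8 and DNAJB1 because they hold the same kind of element. Capitals mark each match to GAANNTTC or TTCNNGAA, which are adjoining units of a heat shock element, read on both strands.
HSPB1: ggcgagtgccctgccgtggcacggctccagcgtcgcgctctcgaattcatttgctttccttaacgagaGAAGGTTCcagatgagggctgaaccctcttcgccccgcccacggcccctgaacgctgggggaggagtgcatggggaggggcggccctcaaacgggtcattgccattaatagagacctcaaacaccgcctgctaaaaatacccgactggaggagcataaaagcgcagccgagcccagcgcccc
HSPB6: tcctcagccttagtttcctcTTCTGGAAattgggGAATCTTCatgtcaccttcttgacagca
HSPB8: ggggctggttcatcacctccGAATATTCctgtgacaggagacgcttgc
DNAJB1: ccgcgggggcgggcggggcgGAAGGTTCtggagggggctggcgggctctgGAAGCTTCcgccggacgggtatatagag
The stretch of HSPB6 is chr19:35757198-35757259 (minus strand) and ends 168 bases before the start, that of HSPB8 is chr12:119178823-119178870 (plus strand) and ends 60 bases before it, and that of DNAJB1 is chr19:14518417-14518494 (minus strand) and ends 19 bases before it. In HSPB1 the match began 182 bases before the start. A match of this kind was found in 19 of the 65 members with a RefSeq promoter (29.2%, in 250 bases before to 50 after the start) and in 16.2% of all 27305 genes. HSPB3 holds one too. The 14 bright members with a match had a median log2 FC of −0.08 and the 33 bright members without one a median of 0.01, and among those with a match HSPB1 was at −1.01 and DNAJB1 at −0.03. A match is a description of the letters and not a bound site.

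**Figure D2:**
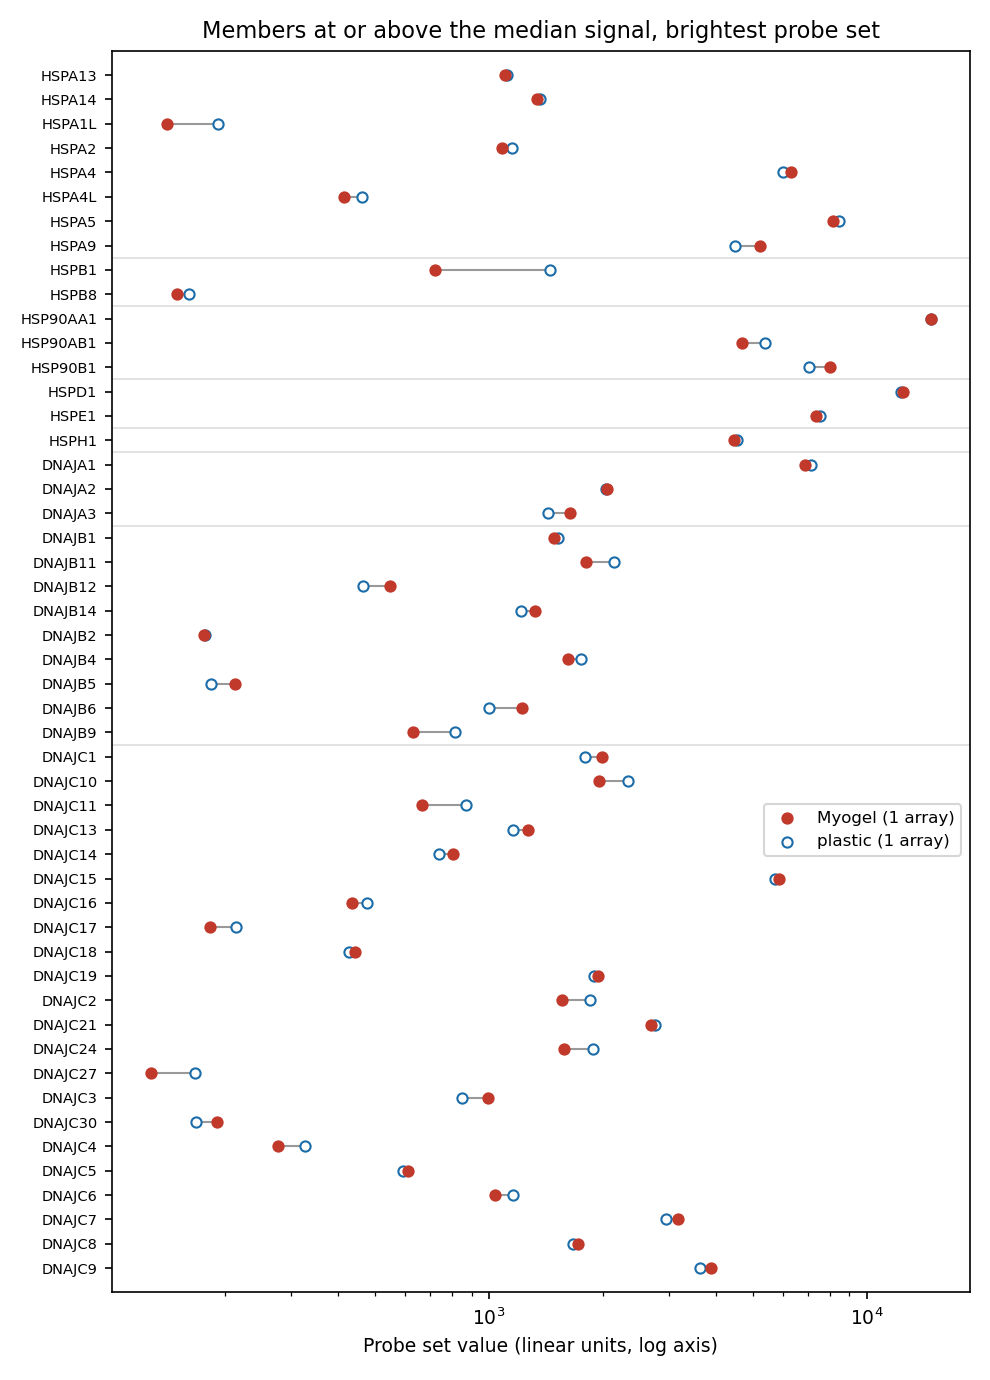
Deposited values (horizontal axis, linear units on a log axis) of the 50 members at or above the median signal, with Myogel as filled and plastic as open circles joined by a line, 1 array each. The circles of HSPB1 stand apart by 2.01-fold, while those of HSP90AA1, HSPD1, HSPA5 and DNAJB1 overlap.

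The Hsp90 and Hsp70 chaperones were within FC 1.5, apart from the dim HSPA12B. HSP90AA1, the inducible cytosolic Hsp90, had 14769 units on Myogel and 14757 units on plastic (log2 FC 0.00), and its 4 probe sets spanned 0.00 to 0.17. HSP90AB1, the constitutive cytosolic form, had 4684 units on Myogel and 5378 units on plastic (log2 FC −0.20). Its other probe sets had 4316 units on Myogel and 2919 units on plastic (0.56), and 1836 units on Myogel and 2824 units on plastic (−0.62). The probe sets of HSP90AB1 therefore disagreed in direction, and the gene has no settled sign on these arrays.

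HSPD1, the chaperonin Hsp60 of mitochondria, had 12446 units on Myogel and 12338 units on plastic (log2 FC 0.01), and HSPE1, the Hsp10 that caps it, had 7334 units on Myogel and 7525 units on plastic (−0.04). Both were level, and they are neighbours on chromosome 2 with 1 readthrough gene between them in the RefSeq table. HSPH1, an Hsp110 exchange factor induced by heat, had 4464 units on Myogel and 4529 units on plastic (−0.02). HSPA4, another Hsp110 protein, had 6316 units on Myogel and 5985 units on plastic (0.08). HSPA4L, its close relative, had 414 units on Myogel and 462 units on plastic (−0.16). In their brightest probe sets the exchange factors of the Hsp110 type were thus level on the 2 surfaces. The other probe sets of HSPH1 were at 0.19 and −0.33, and those of HSPA4 lay between −0.11 and 0.12. HSPH1 and HSPA4 therefore have no settled sign here, while the second probe set of HSPA4L was at −0.15.

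Stretches of 3 promoters are shown because these abundant genes, none past FC 1.5 in the probe set that stands for it, hold the longer form of the heat shock element. Capitals mark each match to GAANNTTCNNGAA or TTCNNGAANNTTC, which also holds the shorter match above.
HSP90AA1: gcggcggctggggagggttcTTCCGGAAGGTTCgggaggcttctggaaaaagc
HSP90AB1: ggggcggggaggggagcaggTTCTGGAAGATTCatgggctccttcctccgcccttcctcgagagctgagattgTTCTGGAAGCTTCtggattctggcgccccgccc
HSPD1: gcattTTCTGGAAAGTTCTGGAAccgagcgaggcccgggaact
The stretch of HSP90AA1 is chr14:102087100-102087152 (minus strand), that of HSP90AB1 is chr6:44247758-44247863 (plus strand) and that of HSPD1 is chr2:197500048-197500090 (minus strand), from RefSeq on GRCh38.p14. They end 55, 79 and 207 bases before the start of HSP90AA1, HSP90AB1 and HSPD1. In HSPD1 the capitals join 2 overlapping matches. The longer element was found in 6 of 65 members (9.23%), against 0.608% of all genes, namely in DNAJA1, DNAJB6, HSP90AA1, HSP90AB1, HSPA6 and HSPD1. The 5 bright genes among them had log2 FC of −0.20 to 0.29, and none passed FC 1.5, as was so for most bright genes (0.93% higher and 1.66% lower).

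HSPA6, the Hsp70 gene that is nearly silent without heat, was dim, with 62.6 units on Myogel and 55.1 units on plastic (log2 FC 0.18). HSPA1L, a testis form of Hsp70, had the largest change of the bright HSPA genes, with 141 units on Myogel and 192 units on plastic (−0.45), within the range of −0.88 to 0.67 at its signal. The main inducible genes HSPA1A and HSPA1B and the constitutive HSPA8 were only in probe sets with several gene symbols and have no value here. Of the 14 genes listed as heat inducible, 11 were measured, 0 were higher by FC 1.5 and 1, HSPB1, was lower, and the median log2 FC was −0.04. Of the 11, 10 were bright, and of all bright genes 0.93% were higher and 1.66% lower. DNAJB1, the Hsp40 that is induced together with Hsp70, had 1491 units on Myogel and 1527 units on plastic (−0.03). DNAJA1, its farnesylated relative, had 6864 units on Myogel and 7114 units on plastic (−0.05). The list also holds HSP90AB1 and HSPA8, described above as constitutive, and the testis form HSPA1L. Of its measured genes, HSPB1 was thus the only one past the threshold.

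The chaperones of the endoplasmic reticulum fold secreted and membrane proteins and are induced together when unfolded proteins gather there. HSPA5, or BiP, had 8146 units on Myogel and 8456 units on plastic (log2 FC −0.05). HSP90B1, or GRP94, had 8009.6 units on Myogel and 7053 units on plastic (log2 FC 0.18), just above its range of −0.26 to 0.17. Its second probe set had 1614 units on Myogel and 1012 units on plastic (0.67), also above the range at its signal, −0.51 to 0.46. Both probe sets of HSP90B1 were higher on Myogel, the brighter one within FC 1.5, and both carry the suffix _x_at, which marks probes that may detect other transcripts. Among the DNAJ partners of BiP, DNAJB9 had 629.7 units on Myogel and 812 units on plastic (−0.37), with its other probe sets at −0.15 and 0.03. DNAJB11 had 1810.2 units on Myogel and 2148 units on plastic (−0.25). DNAJC3, which also restrains the kinase PERK, had 994 units on Myogel and 849 units on plastic (0.23), with its other probe sets at 0.30, 0.70 and −0.14. DNAJC10, a disulfide reductase, had 1958 units on Myogel and 2337 units on plastic (−0.26), with its probe sets between −0.61 and 0.13. HSPA13, an Hsp70 of microsomes, had 1105 units on Myogel and 1114 units on plastic (−0.01), and DNAJC1 had 1993 units on Myogel and 1795 units on plastic (0.15). Of the 9 genes of this set, 8 were measured, 0 passed FC 1.5 in either direction and the median log2 FC was −0.03, with 3 above 0 and 5 below 0. All 8 were bright, and of all bright genes 0.93% were higher and 1.66% lower by FC 1.5.

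Stretches of the promoters of HSPA5 and HSP90B1 are shown because they hold an element through which some genes of this kind are induced. In HSPA13, DNAJB9, DNAJB11, DNAJC3 and DNAJC10 no match to it was found. Capitals mark each match to the ER stress element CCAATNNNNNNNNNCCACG or its reverse complement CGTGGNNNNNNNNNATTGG.
HSPA5: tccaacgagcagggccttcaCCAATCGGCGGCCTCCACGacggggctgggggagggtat
HSP90B1: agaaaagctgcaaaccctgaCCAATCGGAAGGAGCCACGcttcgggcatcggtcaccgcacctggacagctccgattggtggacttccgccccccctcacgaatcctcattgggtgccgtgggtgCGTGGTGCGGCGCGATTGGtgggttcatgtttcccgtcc
The stretch of HSPA5 is chr9:125241371-125241429 (minus strand) and ends 27 bases before the start, and that of HSP90B1 is chr12:103930196-103930359 (plus strand) and ends 50 bases before it, from RefSeq on GRCh38.p14. These were the 2 members with this element (3.08%), against 0.0916% of all genes. Their log2 FC was −0.05 for HSPA5 and 0.18 for HSP90B1.

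In mitochondria, HSPA9, or mortalin, the Hsp70 that pulls proteins through the inner membrane, had 5225 units on Myogel and 4493 units on plastic (log2 FC 0.22). Its next probe set had 4238 units on Myogel and 4896 units on plastic (−0.21) and the third had 1012 units on Myogel and 1015 units on plastic (0.00), so that the bright probe sets did not share a sign. DNAJA3, the DNAJ partner of mortalin, had 1643 units on Myogel and 1435 units on plastic (0.20). DNAJC15, a J protein of the import motor, had 5847 units on Myogel and 5726 units on plastic (0.03). DNAJC19, another J protein of the inner membrane, had 1944 units on Myogel and 1899.9 units on plastic (0.03). DNAJC11, a protein of the cristae junctions, had 664 units on Myogel and 869.7 units on plastic (−0.39), and its second probe set had 243 units on Myogel and 250.5 units on plastic (−0.04). DNAJC30 had 191 units on Myogel and 168 units on plastic (0.18), and DNAJC4 had 277 units on Myogel and 326 units on plastic (−0.23). Of the 10 genes of this set, HSPD1 and HSPE1 included, 1 was higher by FC 1.5, the dim DNAJC28, and 0 were lower, with a median log2 FC of 0.03. The other 9 were bright. Of all bright genes 0.93% were higher and 1.66% lower, and of all dim genes 18.5% were higher.

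The DNAJ genes formed the largest class, with 43 protein coding members, a median log2 FC of 0.01, 4 higher and 2 lower by FC 1.5. These calls were all among the 9 dim DNAJ genes, and of all dim genes 18.5% were higher and 33.4% lower. The 34 bright DNAJ genes lay between −0.39 and 0.29, with 18 above 0 and 16 below 0. The upper end was DNAJB6, which keeps polyglutamine proteins from aggregating and is named here after its value was seen, with 1222 units on Myogel and 999 units on plastic (0.29). The lower end was DNAJC27, a small GTPase with a J domain, with 128 units on Myogel and 167 units on plastic (−0.39). All 4 probe sets of DNAJC27 were lower on Myogel, at −0.39, −0.77, −0.51 and −1.02. Each lay within the range at its signal, and all but the first were dim. DNAJA2, a cytosolic co-chaperone, had 2049 units on Myogel and 2041 units on plastic (0.01). DNAJC7, which links Hsp70 and Hsp90, had 3158 units on Myogel and 2951 units on plastic (0.10), and DNAJC9, a histone chaperone, had 3865 units on Myogel and 3614 units on plastic (0.10). DNAJB4 had 1618 units on Myogel and 1753 units on plastic (−0.12), while its second probe set had 252 units on Myogel and 588 units on plastic (−1.22). The other bright DNAJ genes outside the sets above lay between −0.25 and 0.23. The lower end was DNAJC24, which serves the diphthamide modification of elongation factor 2, with 1580.0 units on Myogel and 1882 units on plastic (−0.25). Next to it stood DNAJC2, a J protein of the ribosome, with 1564 units on Myogel and 1854 units on plastic (−0.24). Its Hsp70 partner on the ribosome, HSPA14, had 1341 units on Myogel and 1369 units on plastic (−0.03). At the upper end was DNAJB12, a J protein of the endoplasmic reticulum membrane, with 547 units on Myogel and 464 units on plastic (0.23), followed by DNAJB5 with 213 units on Myogel and 184 units on plastic (0.21). DNAJC13, a J protein of endosomes, had 1272 units on Myogel and 1161 units on plastic (0.13), and DNAJC6, or auxilin, which strips clathrin from vesicles, had 1039 units on Myogel and 1157 units on plastic (−0.16). The second probe set of DNAJC6 was at or next to the floor, with 1.00 on Myogel and 1.85 units on plastic. DNAJC8, a splicing factor, had 1724 units on Myogel and 1665 units on plastic (0.05), and DNAJC21, which serves ribosome assembly, had 2692 units on Myogel and 2746 units on plastic (−0.03). In their brightest probe sets all of these other bright genes lay within FC 1.2 and within the range at their signal. They are named after their values were seen, as are HSPA2, with 1084 units on Myogel and 1151 units on plastic (−0.09), and the dim DNAJA4, with 81.5 units on Myogel and 99.1 units on plastic (−0.28). The remaining dim members within FC 1.5 were HSPA12A (−0.35), HSPB2 (0.26), DNAJB7 (−0.16), DNAJC5G (−0.18) and 3 non-coding genes at or near the floor or under 12 units on both arrays.

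**Figure D3:**
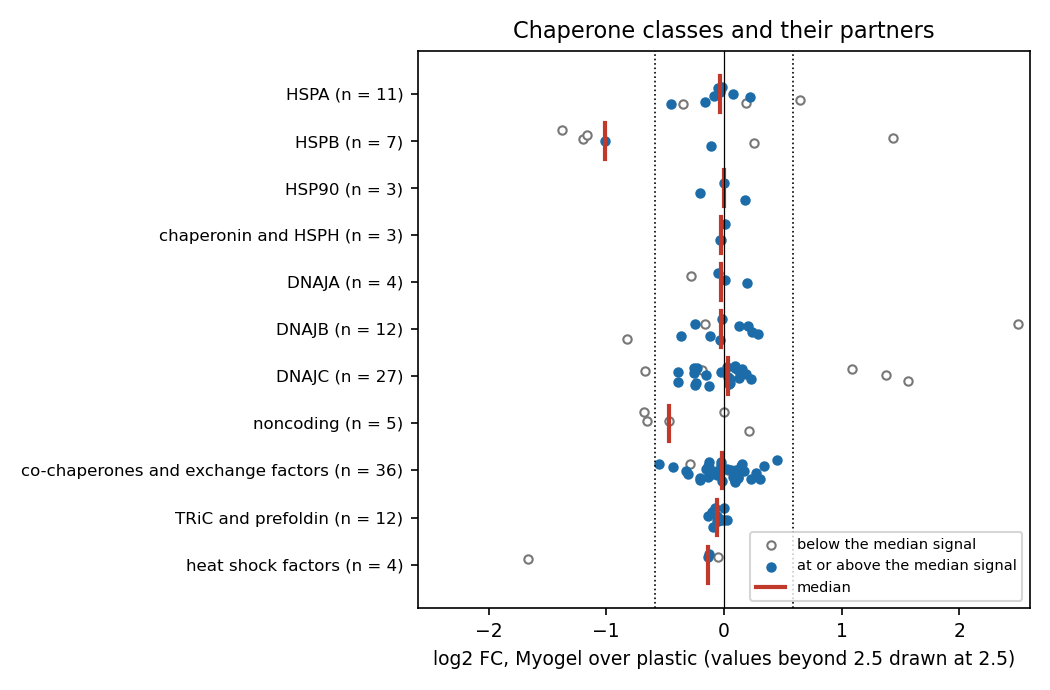
Log2 FC of Myogel over plastic (horizontal axis, log2 scale) of each of the 72 members by class and of their partners by list, with filled circles at or above the median signal, open circles below it, the median as a bar and FC 1.5 as dotted lines. DNAJB8, at the floor on plastic, is drawn at the right edge. The bright members lie between −1.01 and 0.29, and members past FC 1.5 are dim ones apart from HSPB1.

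The remaining calls were of dim genes, named here after their values were seen. DNAJB8, a testis DNAJ protein, had 174 units on Myogel and was at the floor of 1.00 on plastic in its 1 probe set, so that no fold is given, and it was the only member higher by FC 1.5 with a difference of at least 100 units, which was met by 0.445% of all genes. DNAJC22 had 140.1 units on Myogel and 47.3 units on plastic (log2 FC 1.57, range −1.07 to 0.96), but its other probe sets were lower on Myogel, at −0.26 and −0.47. DNAJC12, a co-chaperone of aromatic amino acid hydroxylases, had 73.4 units on Myogel and 34.5 units on plastic (1.09), with its other probe sets at −0.78 and −1.94. The higher calls of DNAJC22 and DNAJC12 thus rest on 1 of 3 probe sets each. DNAJC28 had 40.7 units on Myogel and 15.7 units on plastic (1.38). HSPA12B, a distant Hsp70 relative of endothelium, had 175.5 units on Myogel and 112 units on plastic (0.64), and its second probe set was also higher, at 1.68. The 3 endothelial markers had summed values of 227 units on Myogel and 296 units on plastic. On the lower side, DNAJB13, a protein of sperm flagella and cilia, had 50.1 units on Myogel and 88.4 units on plastic (−0.82), and DNAJC5B had 26.6 units on Myogel and 42.4 units on plastic (−0.67). The non-coding DNAJC3-DT had 67.6 units on Myogel and 107 units on plastic (−0.66), and HSPA2-AS1 was at the floor of 1.00 on Myogel and had 1.60 units on plastic. Apart from DNAJB8 and DNAJC22, all of these lay within the range at their signal.

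Probe sets of 1 gene give a second reading from the same pair of arrays. In the 33 members with at least 2 bright probe sets, the 2 brightest had the same sign in 19. The median range over the probe sets of a gene was 0.21 on the log2 scale. The bright members had a median absolute log2 FC of 0.13, but a range over several probe sets and a single value are unlike measures. The range was over 0.5 in 7 genes. Of 101 bright member probe sets, 3 were higher by FC 1.5, of HSP90B1, DNAJC3 and DNAJC13, and 4 were lower, of HSPB1, DNAJB4, DNAJC10 and HSP90AB1. The share past FC 1.5 over all bright probe sets was not computed, and neither were sign agreement and range over all genes. These counts therefore have no background here and are not read as particular to the members. HSPB1 has 1 probe set and is not among the 33, so that its probe set past the threshold had to be the one that stood for it. In each of the other genes named here the brightest probe set was within FC 1.5.

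**Figure D4:**
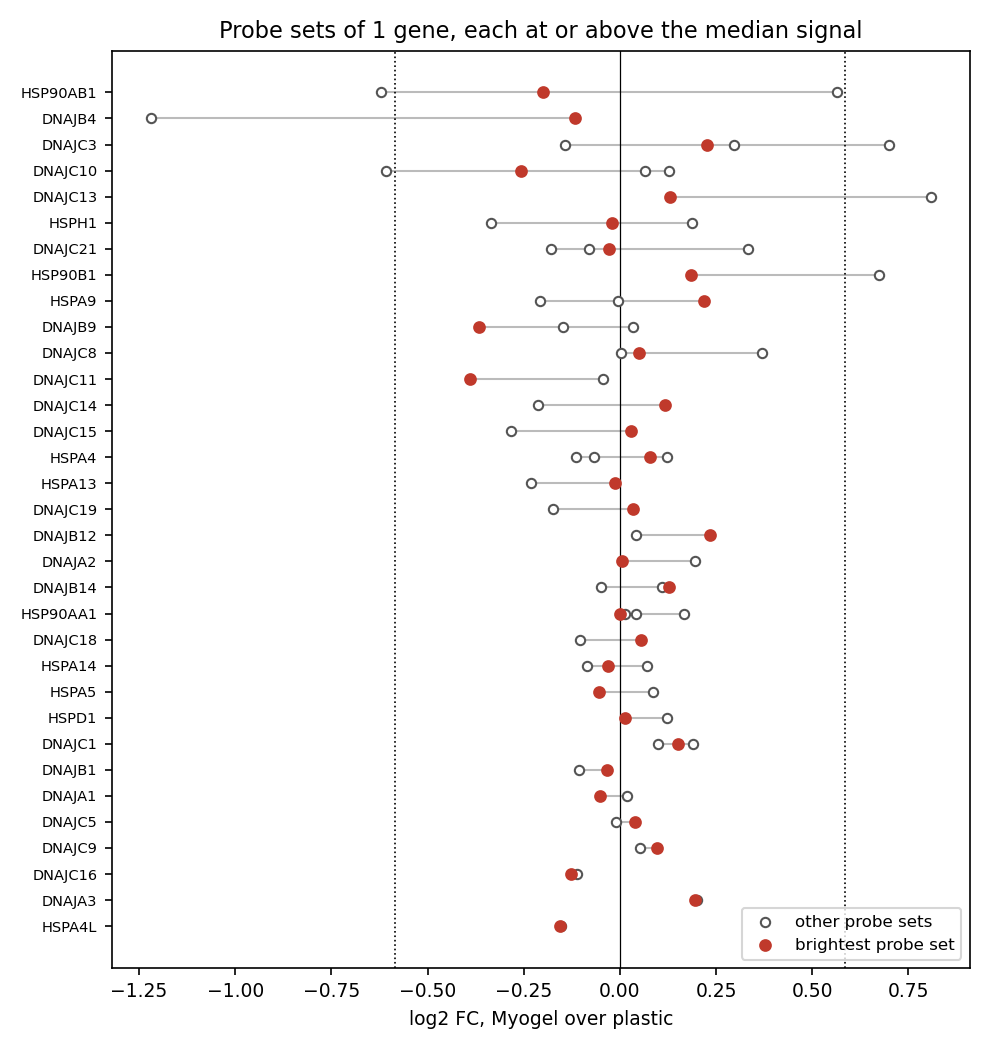
Log2 FC of Myogel over plastic (horizontal axis, log2 scale) of the bright probe sets of the 33 members with at least 2 of them, with the brightest filled, the others open and FC 1.5 as dotted lines. Most genes have points close to 0, while those of HSP90AB1, at −0.62 and 0.56, and of DNAJB4, at −0.12 and −1.22, lie apart.

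The partners of the chaperones were level too, as bright genes mostly were. Of 38 listed co-chaperones and exchange factors, 36 were measured, and 34 of these were bright. Over all bright genes 0.93% were higher and 1.66% lower by FC 1.5. Of the listed genes 0 passed FC 1.5 in either direction and the median log2 FC was −0.01. The lowest was BAG1, an exchange factor of Hsp70, with 1445 units on Myogel and 2112 units on plastic (−0.55, range −0.43 to 0.42), while its next probe set had 1022 units on Myogel and 907 units on plastic (0.17). The highest was CHORDC1, a co-chaperone of Hsp90, with 1289 units on Myogel and 943 units on plastic (0.45). BAG3, the partner of HSPB8, had 4778 units on Myogel and 4819 units on plastic (−0.01). These genes of the list are named after their values were seen. The 12 measured of 14 subunits of TRiC and prefoldin, which fold actin and tubulin, lay between −0.13 and 0.02. Heat shock factor HSF1 had 229 units on Myogel and 250.4 units on plastic (−0.13), and HSBP1, which binds it, had 3979 units on Myogel and 4380.3 units on plastic (−0.14). HSF4 had 39.3 units on Myogel and 40.8 units on plastic (−0.05), and the dim HSF5 had 11.2 units on Myogel and 35.6 units on plastic (−1.67). Of these 4 genes 0 were higher by FC 1.5 and 1, HSF5, was lower, and HSF2, the other gene of the list, was not measured here. Of all dim genes 33.4% were lower.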

How the data were processed

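The authors extracted the deposited intensity values from the scanned arrays with the dChip software. The values are linear with a floor of 1, and how the arrays were normalized to each other is not given in the sources used here. Probe sets were named from the platform annotation. Of 54613 probe sets, 41091 had 1 symbol, 1801 had several and were left out, and 11721 are unnamed here. The log2 FC of Myogel over plastic was computed without further scaling, and FC 1.5 was the call, with the share of all 19775 genes as background. No p-value was computed, with 1 array per surface, and the number of arrays limits the precision.

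The members and lists were chosen with earlier results of these data known. Genes were named if they passed FC 1.5 at or above the median signal, were among the 3 brightest or had the largest bright change of their class, or belonged to the heat inducible, endoplasmic reticulum or mitochondrial set or the heat shock factors. HSPB1 meets several of these.

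Alternatives were quantile normalization, loess centring (span 0.3), a median log2 FC of 0, offsets of 16 and 50, a filter on signal, leaving out _x_at, _s_at and _a_at probe sets, the mean over probe sets, coding members alone, FC 1.2, FC 2 and a difference of 100 units. Promoters came from RefSeq. Python 3.11.15, numpy 2.4.6, pandas 2.3.3 and statsmodels 0.14.6 were used, and the counting was tested on simulated data.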

Additional observations from a re-analysis of the deposited data

How the results depend on the processing

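Shares in brackets are those of all genes under the same setting. The 6 of 72 members higher on Myogel by FC 1.5 became 2 with an offset of 50 (1.81%), 2 of 52 where the higher value had to reach the median signal (1.35%), and 1 with a difference of at least 100 units (0.445%). The 8 lower members became 5 after quantile normalization (13%), 5 with the median log2 FC set to 0 (15.2%), 5 with an offset of 16 (10.2%), 2 with an offset of 50 (2.89%), 1 of 52 where the higher value had to reach the median signal (2.4%), 4 of 59 on probe sets ending in plain _at alone (20.7%), 13 by the mean over probe sets (21.4%), 15 at FC 1.2 (30.8%), 4 at FC 2 (10.7%) and 1 with the difference of 100 units (0.627%). The median log2 FC of the members, −0.02, became 0.082 with the median over all probe sets set to 0, which put the median of all genes at 0.04 in place of −0.07, and it was 0.01 after quantile normalization. By the mean over probe sets DNAJC12 turned to −0.54, and on plain _at probe sets DNAJC5B turned to 0.27. The cause of these shifts was not tested. For the 50 named genes, 318 of 341 values under other settings moved by less than the SD of log2 FC among probe sets of like signal, 21 moved by more and these 2 turned, and 31 values of genes within FC 1.5 changed sign. HSPB1 has no value without _s_at probe sets. No paired analysis was possible because each surface is 1 array.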
